A study of Brassica napus with 12 samples.

Results

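The 4 genes described here are *CHI* (LOC106412109), *CYP75B137* (LOC106436650), *FLS3* (LOC106382906) and *UGT89B1* (LOC106430142) of rapeseed, *Brassica napus*, which the study assigned to flavonoid biosynthesis. They were taken by their identifiers, and all 4 were found among the 998 genes that the deposited values list for every library. The flowers came from 2 genotypes, the high-phenolic G67 and the low-phenolic G59. Both were grown in pots in a greenhouse and were treated once flowers were visible. The relative water content of the soil was 10% in drought pots, which received 20% PEG6000, a polymer that binds water, and 30% in control pots, which received sterile water. The 4 groups were G67 drought, G67 control, G59 drought and G59 control, with 3 libraries each and 12 in all. Each phenolic class is represented by a single genotype, so that class and genotype cannot be told apart. The experiment was done in 3 repeats, but neither the labels nor the methods tell how many plants went into a library, and the protocol speaks of 4 cDNA libraries. The p-values therefore measure the spread between these 12 samples, which may be partly technical.

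Flavonoids are phenolic compounds that colour flowers, absorb ultraviolet light and scavenge reactive oxygen. Their synthesis starts from a phenylpropanoid and malonyl units, which chalcone synthase joins to a chalcone. Chalcone isomerase, encoded by *CHI*, closes the chalcone to a flavanone, the core of the molecule. Cytochromes P450 of the CYP75B family, to which *CYP75B137* belongs by its name, include enzymes that add a hydroxyl group to the B-ring. Flavonol synthases, the family of *FLS3*, turn dihydroflavonols into flavonols, and *FLS3* of *Arabidopsis thaliana* is a less active relative of the main enzyme of that species. UDP-dependent glycosyltransferases, the family of *UGT89B1*, attach a sugar to such products, which makes them soluble and ready for storage in the vacuole. The 4 genes are therefore given in this order, as core, hydroxylation, flavonol synthesis and glycosylation.

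Expression was given as FPKM, fragments counted on a gene relative to its exon length and to all mapped fragments of the library, so that levels of different genes can be set side by side. The listed genes are part of each library, and their depth is unknown. Their FPKM summed to 39158 to 43412 in G67 drought, 45469 to 51160 in G67 control, 3439 to 5267 in G59 drought and 883 to 1059 in G59 control, and 7 to 11, 28 to 38, 49 to 56 and 261 to 283 of them were listed at 0. Across the listed genes, the ranks of the group means were unrelated between G67 and G59 (Spearman's rho 0.0089 under drought and -0.028 under control), against a rho of 0.802 between drought and control in G67 and 0.186 in G59. Whether a listed identifier stands for the same gene in both genotypes is thus in doubt, and this touches every comparison of G67 with G59. The drought response of G59, and with it the interaction, calls for caution too, given the rho of 0.186 within G59. The highest listed FPKM was 2.99, 33.97 and 9.73 in the G59 control libraries, against 941, 1238 and 633 in G59 drought. *B. napus* carries near-identical copies of many genes in its 2 subgenomes, and how reads shared between copies were counted is not given in the sources used here. The labelled tissue was not checked against flower genes, since the names used here come without descriptions.

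*CHI* and *FLS3* were the most strongly expressed of the 4 genes in G67. *CHI* had 77.9, 56.8 and 56.5 FPKM in the G67 drought libraries, against 47.3, 25.7 and 21.9 FPKM in G67 control. All drought values lay above all control values, and replicate 1 was the highest in both groups. When libraries with the same replicate number were subtracted, *CHI* was higher under drought by 30.7, 31.0 and 34.6 FPKM. These differences had a mean of 32.1 ± 2.14 FPKM (SD, n = 3), while the SD within the groups was 12.3 FPKM for drought and 13.7 FPKM for control. The step was thus nearly the same size in each same-numbered pair, although the drought to control ratio was 1.65, 2.21 and 2.58. Whether the numbers mark true pairs was not tested. The level of *CHI* in G59 was 5.81, 5.70 and 2.95 FPKM with drought and 1.33, 1.45 and 0.73 FPKM without. Its ratio in same-numbered G59 libraries, which did not deviate together across the listed genes, was 4.37, 3.93 and 4.04. The order of its levels was G67 drought, G67 control, G59 drought and G59 control, and no neighbours in this order overlapped.

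*CYP75B137* was a lowly expressed gene in G67. Its level was 6.95, 7.59 and 7.72 FPKM in G67 drought and 4.54, 2.63 and 1.77 FPKM in G67 control, without overlap. The drought libraries were close to each other, with a coefficient of variation of 5.56%, against 47.6% in the control libraries. Same-numbered libraries differed by 2.41, 4.96 and 5.95 FPKM. In G59 the gene was listed at 12.74 FPKM in replicate 1 of drought, the highest value of the gene in the 12 libraries, and at 0 in the other 2 drought libraries and all 3 control libraries. Its G59 drought value thus stands or falls with 1 library. The levels of G67 drought and G67 control did not overlap, and G59 drought overlapped with both.

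*FLS3* had 55.2, 50.0 and 46.5 FPKM in G67 drought, against 46.5, 30.1 and 31.2 FPKM in G67 control. The lowest drought library and the highest control library were nearly equal, at 46.54 and 46.53 FPKM. The differences between same-numbered libraries were 8.71, 19.9 and 15.4 FPKM, a mean of 14.7 ± 5.64 FPKM (SD, n = 3), and the drought to control ratios were 1.19, 1.66 and 1.49. *FLS3* had 2.24, 2.87 and 0.84 FPKM in G59 drought and 0.20, 0.35 and 0.31 FPKM in G59 control. Same-numbered G59 libraries, which did not deviate together, had ratios of 11.2, 8.20 and 2.71, a wider range than that of *CHI* under the same numbering. The order of the groups was that of *CHI*, and no neighbours overlapped.

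*UGT89B1* was at or near 0 in every control library and present in every drought library. It had 3.95, 8.16 and 10.0 FPKM in G67 drought and was listed at 0, 0 and 0.11 FPKM in G67 control. It had 5.35, 4.80 and 1.15 FPKM in G59 drought and was listed at 0 in the 3 libraries of G59 control. Its G67 drought and G59 drought libraries overlapped, as did the 2 control groups. No fold is given for G59, where the control is at 0.

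**Figure D1:**
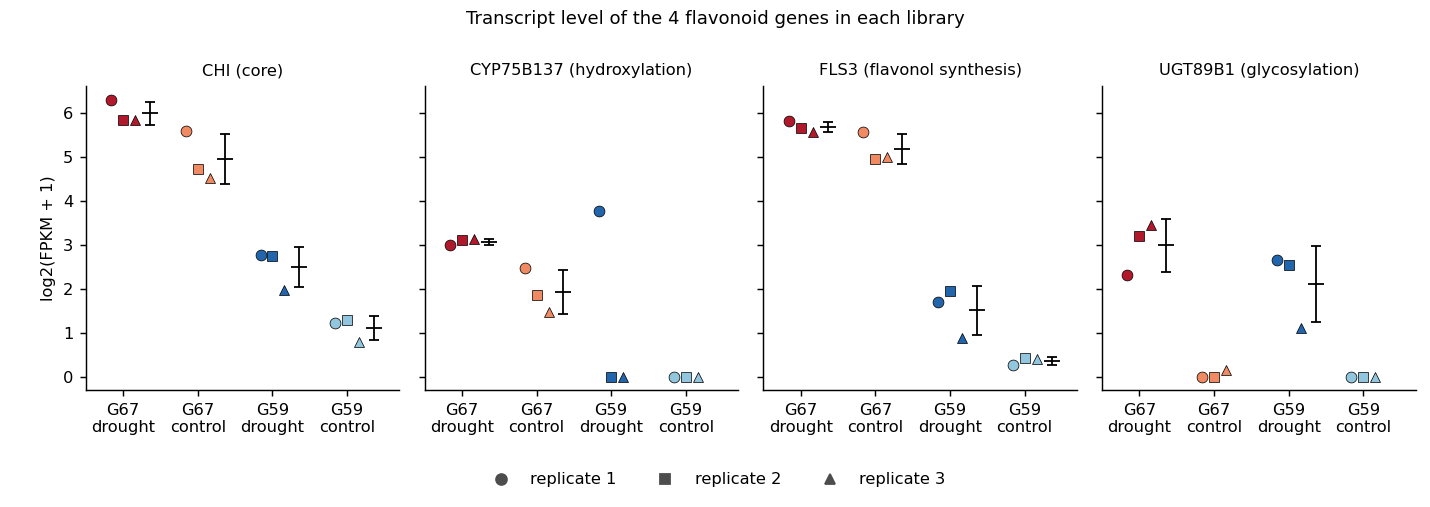
Level of the 4 flavonoid genes as log2(FPKM + 1) in each of the 12 libraries, by group; points are libraries (marker by replicate) and bars give the mean ± SD of 3 libraries where none is listed at 0. *CHI* and *FLS3* stand in the same order of groups, *UGT89B1* is at or near 0 in both control groups, and the only *CYP75B137* value above 0 in G59 is 12.74 FPKM.

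Drought and control were compared in each genotype, as the study sought genes of drought response and flavonoid synthesis in both. In G67, *UGT89B1* and *CHI* rose, with log2 fold changes of log2(FPKM + 1) of 2.94 and 1.05, and *CYP75B137* and *FLS3*, with 1.14 and 0.51, did not pass the test. In limma over the 998 listed genes, 2 of the 4 were called at a Benjamini-Hochberg adjusted p of at most 0.05 and a log2 fold change of at least 1 in size, both higher under drought, while 44% of all listed genes were called and 29.5% were called as higher. The share of the 4 is thus near that of the list. The list is only part of the expressed genes and was not shown to be a neutral background. The study used these libraries when it picked the 4 genes, so their shared direction is not independent evidence. The FPKM of drought and control did not overlap for any of the 4, as for 91.3% of the listed genes, and drought was the higher group in all 4, against 42.7% of the listed genes. The median log2 fold change was 1.09 for the 4 genes and -0.38 for all listed genes.

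*UGT89B1* had a standard error of 0.37 and an adjusted p of 5.81e-05 in limma, and its log2 fold change was the 16th highest of the 998. Since its control is near 0, the size depends on the pseudocount, and it was 8.23 with 0.01 in place of 1. *CHI* (standard error 0.30, adjusted p = 0.00705 in limma) stood at place 274, *CYP75B137* (0.75, adjusted p = 0.165) at 245 and *FLS3* (0.26, adjusted p = 0.0817) at 424. Relative to the median of the listed genes, the log2 fold changes were 3.32 for *UGT89B1*, 1.52 for *CYP75B137*, 1.43 for *CHI* and 0.89 for *FLS3*. *CHI* was just past the fold threshold and was not called without G67 drought replicate 1 (0.90) or without G67 control replicate 2 (0.94) or 3 (0.83), nor with median-ratio scaling (0.92) or quantile normalization (0.73). *CYP75B137*, whose error in the fit of 4 groups includes the single high G59 library, was called when only the 6 G67 libraries were fitted (adjusted p = 0.00563 in limma), also with the replicate number as a block (adjusted p = 0.01 in limma). *FLS3* had an adjusted p of 0.046 and 0.0248 in these fits in limma, and 0.00523 with median-ratio scaling within each genotype. With median-ratio scaling of all libraries or quantile normalization, its adjusted p was 0.174 or 0.183 in limma. Its log2 fold change was 0.36 to 0.77 over the alternatives, under the fold threshold.

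The same comparison in G59 found that 3 of the 4 genes rose, *UGT89B1*, *CHI* and *FLS3*, with log2 fold changes of 2.10, 1.40 and 1.15. Of the listed genes, 54% were called in this comparison and 47.3% were called as higher, and the median log2 fold change was 1.33 for the 4 genes and 0.98 for all listed genes. Above that median, *UGT89B1* lay by 1.12, *CHI* by 0.42, *CYP75B137* by 0.28 and *FLS3* by 0.17. *UGT89B1* (standard error 0.37, adjusted p = 0.00036 in limma) stood at place 78 of 998, while *CHI* (0.30, adjusted p = 0.00116), *CYP75B137* (0.75, adjusted p = 0.125) and *FLS3* (0.26, adjusted p = 0.00146) stood at 256, 323 and 388. *UGT89B1* was thus the furthest of the 4 above the median of the G59 list. The groups did not overlap for 3 of the 4, each wholly higher under drought, against 98% of the listed genes and 78.3% wholly higher, and *CYP75B137* was the exception.

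The G59 calls depended on the scaling and on single libraries. With median-ratio scaling the log2 fold changes were 2.62 for *UGT89B1*, 0.61 for *CHI* and 0.86 for *FLS3*, after quantile normalization they were 2.41, 0.69 and 0.36, and of the 4 only *UGT89B1* was called under either. *FLS3* was not called without G59 drought replicate 2 (0.93), and *CYP75B137* was 0 without G59 drought replicate 1 and was called without replicate 2 or 3 (1.89 each).

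**Figure D2:**
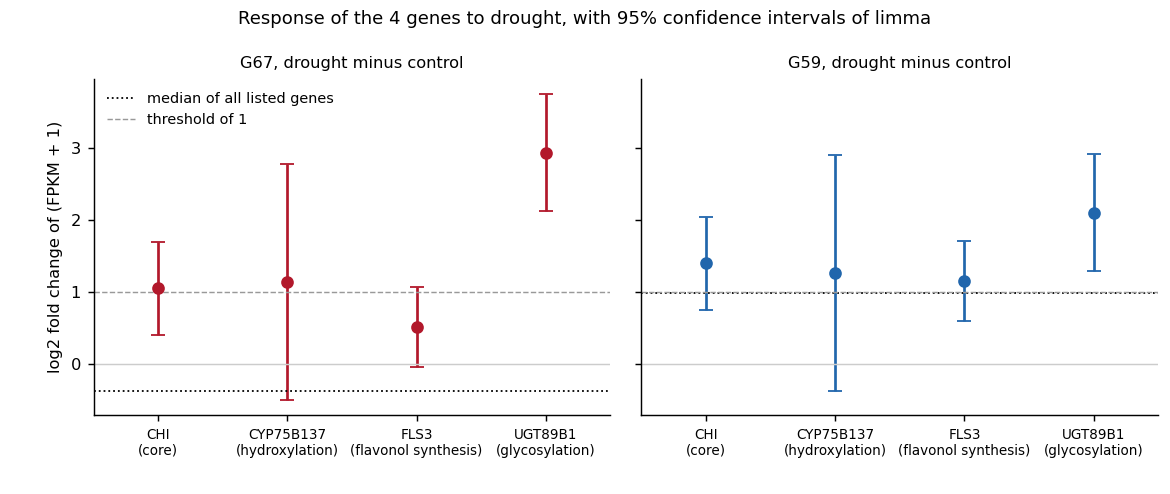
log2 fold change of log2(FPKM + 1), drought minus control, of the 4 genes in G67 (left) and G59 (right), from limma; points are estimates, bars are 95% confidence intervals, the dashed line is the threshold of 1 and the dotted line the median of the 998 listed genes (-0.38 in G67, 0.98 in G59). *UGT89B1* is the highest in both genotypes, at 2.94 and 2.10.

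The difference between the drought responses of the 2 genotypes was tested with the interaction term, G67 minus G59. It was 0.84 for *UGT89B1*, -0.12 for *CYP75B137*, -0.35 for *CHI* and -0.64 for *FLS3*, with standard errors of 0.53, 1.07, 0.42 and 0.36. None of the 4 had an adjusted p of at most 0.05 in limma, and 0 had an unadjusted p under 0.05, while 62.4% of the listed genes were called. The 95% intervals ran from -0.32 to 1.99 for *UGT89B1*, from -2.44 to 2.2 for *CYP75B137*, from -1.27 to 0.57 for *CHI* and from -1.43 to 0.15 for *FLS3* and thus hold differences of more than 1 on the log2 scale in at least one direction. With pseudocounts of 0.1 and 0.01, *FLS3* passed with -1.78 and -2.09 (adjusted p = 0.0109 and 0.00836 in limma), its G59 control values being 0.20 to 0.35 FPKM. Without G59 drought replicate 1 *CYP75B137* passed with 1.14, and without replicate 3 *FLS3* passed with -0.96.

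The steps, each represented by the transcript level of 1 gene, were then compared with one another inside each library. The scaling of the library cancels in a ratio of FPKM, but not in the log2 ratios with a pseudocount of 1 that were tested, where low values pull the ratio towards equality. In G67 drought, *FLS3* lay below *CHI* and in G67 control it lay above or level with it. The *FLS3* to *CHI* ratio of FPKM was 0.709, 0.881 and 0.824 in G67 drought, against 0.985, 1.17 and 1.42 in G67 control. The means were 0.805 ± 0.0877 and 1.19 ± 0.221 (SD, n = 3 each). Every drought ratio was below every control ratio. Put otherwise, the drought to control ratio of *CHI* exceeded that of *FLS3* for any pair of these libraries.

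The *CYP75B137* to *CHI* ratio hardly moved in G67. It was 0.0892, 0.134 and 0.137 in G67 drought and 0.0961, 0.102 and 0.0808 in G67 control, and the groups overlapped. *FLS3* thus had 7.95, 6.59 and 6.03 FPKM per FPKM of *CYP75B137* in G67 drought and 10.2, 11.4 and 17.6 in G67 control. The ratios that hold *UGT89B1* moved most. *UGT89B1* had 0.0507, 0.144 and 0.178 FPKM per FPKM of *CHI* in G67 drought, against 0, 0 and 0.00502 in G67 control. Per FPKM of *FLS3* it had 0.0715, 0.163 and 0.216 in G67 drought, against 0, 0 and 0.00353 in G67 control. Relative to *CYP75B137*, *UGT89B1* was 0.568, 1.08 and 1.30 in G67 drought and 0, 0 and 0.0621 in G67 control. The transcript levels of these genes were thus of like size only under drought.

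On the log2 scale with a pseudocount of 1, drought minus control in G67 was 2.43 for *UGT89B1* over *FLS3*, 1.89 for *UGT89B1* over *CHI*, 1.80 for *UGT89B1* over *CYP75B137*, -0.54 for *FLS3* over *CHI*, -0.63 for *FLS3* over *CYP75B137* and 0.09 for *CYP75B137* over *CHI*. Of these 6 ratios, 5 did not overlap between the groups, against 66.1% of all pairs of listed genes. Each of the 5 had p = 0.1 in the exact two-sided permutation test, the smallest that 3 against 3 allows, and 0.2 after adjustment over the 12 tests of both genotypes, and the ratio of *CYP75B137* to *CHI* had p = 0.8. As their groups do not overlap, those 5 ratios had to move one way in the 3 same-numbered pairs of libraries, which adds no support. The 6 ratios share 4 genes and are not independent of each other.

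In G59, with the pseudocount of 1, only the ratio of *UGT89B1* to *FLS3* separated the groups. In plain FPKM it was 2.39, 1.67 and 1.37 in G59 drought and 0 in the 3 control libraries, a difference of 0.95 on the log2 scale (exact permutation test, p = 0.1, adjusted 0.2). This is 1 of 6 ratios, against 61.8% of all pairs of listed genes. Without a pseudocount the ratio of *UGT89B1* to *CHI* separated them too, with 0.921, 0.842 and 0.390 in G59 drought and 0 in the 3 control libraries. In G59 drought *UGT89B1* was higher than *FLS3* in each library, the opposite of G67 drought. The *FLS3* to *CHI* ratio was 0.386, 0.504 and 0.285 in G59 drought and 0.150, 0.241 and 0.425 in G59 control, and its log2 difference of -0.25 turned to 0.35 and 0.58 with pseudocounts of 0.1 and 0.01. The ratios that hold *CYP75B137* rested on replicate 1 of G59 drought, and 4 of 6 ratios did not overlap without that library.

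**Figure D3:**
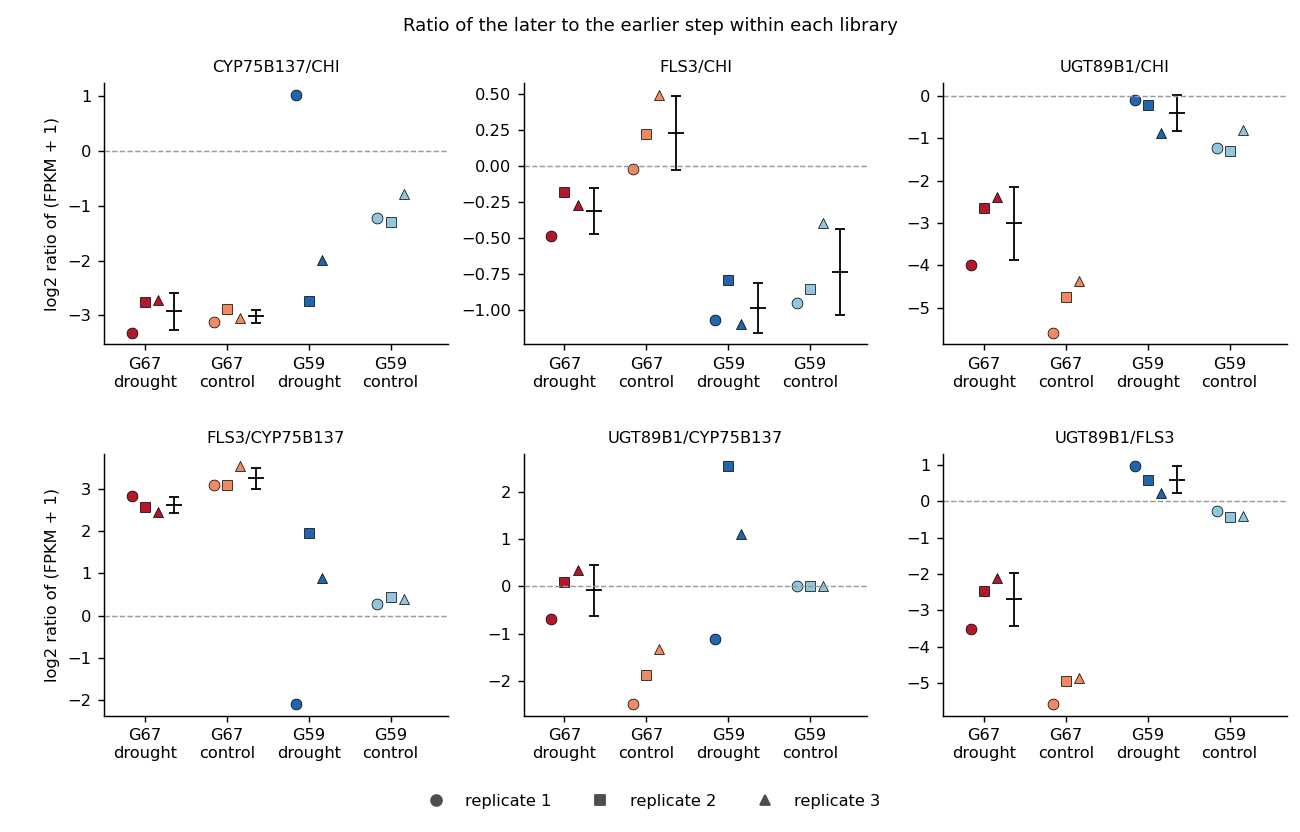
log2((later step + 1)/(earlier step + 1)) of FPKM for the 6 pairs of the 4 genes in each library, by group; points are libraries, bars give the mean ± SD of 3 libraries where neither gene is listed at 0, and the dashed line at 0 marks equal levels. In G67 the ratio of *CYP75B137* to *CHI* overlaps between drought and control, and the other 5 do not.

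Between the genotypes, *FLS3* stood higher relative to *CHI* in G67 than in G59. The FPKM ratios of *FLS3* to *CHI* given above did not overlap between G67 and G59 in either treatment, and on the log2 scale they were higher in G67 by 0.67 under drought and by 0.97 under control (exact permutation test within treatments, p = 0.005, the smallest of its 400 arrangements, adjusted 0.0075 over the 6 ratios). Under drought, *UGT89B1* was lower relative to *CHI* and *FLS3* in G67 than in G59. It had 0.0507 to 0.178 FPKM per FPKM of *CHI* in G67 drought, against 0.390 to 0.921 in G59 drought, and 0.0715 to 0.216 FPKM per FPKM of *FLS3* in G67 drought, against 1.37 to 2.39 in G59 drought. Under control *UGT89B1* was at or near 0 in both genotypes, and its ratios are not compared there. With the pseudocount of 1, 4 of the 6 ratios did not overlap between the genotypes in either treatment, against 68.3% of all pairs of listed genes (4 of 6 and 78.3% under drought, 6 of 6 and 86% under control), and 3 did not with a pseudocount of 0.1 or 0.01. In the 5 ratios that hold *UGT89B1* or *CYP75B137*, both at 0 in G59 control, the separation under control is fixed by the pseudocount and the low FPKM of G59, so no test is given for them.

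The share of each gene in the summed FPKM of the 4 shows the same libraries from another side. The 4 genes summed to 144.1, 122.5 and 120.8 FPKM in G67 drought, 98.3, 58.4 and 55.0 FPKM in G67 control, 26.1, 13.4 and 4.94 FPKM in G59 drought and 1.53, 1.80 and 1.04 FPKM in G59 control. *CHI* and *FLS3* made up most of this in G67. *CHI* took 54.1, 46.3 and 46.7% in G67 drought and 48.1, 44.0 and 39.8% in G67 control, and *FLS3* took 38.3, 40.8 and 38.5% in G67 drought and 47.3, 51.5 and 56.7% in G67 control. The *FLS3* shares did not overlap, while those of *CHI* did. *CYP75B137* took 4.82, 6.20 and 6.39% in G67 drought and 4.62, 4.5 and 3.22% in G67 control, also without overlap.

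*UGT89B1* took 2.74, 6.66 and 8.31% in G67 drought, against 0, 0 and 0.200% in G67 control. In G59 drought it took 20.5, 35.9 and 23.3%, and *CHI* took 22.2, 42.6 and 59.7%. The rest of the first G59 drought library was mostly *CYP75B137*, with 48.7%. In G59 control *CHI* took 86.9, 80.6 and 70.2% of a sum below 2 FPKM and *FLS3* the remainder.

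**Figure D4:**
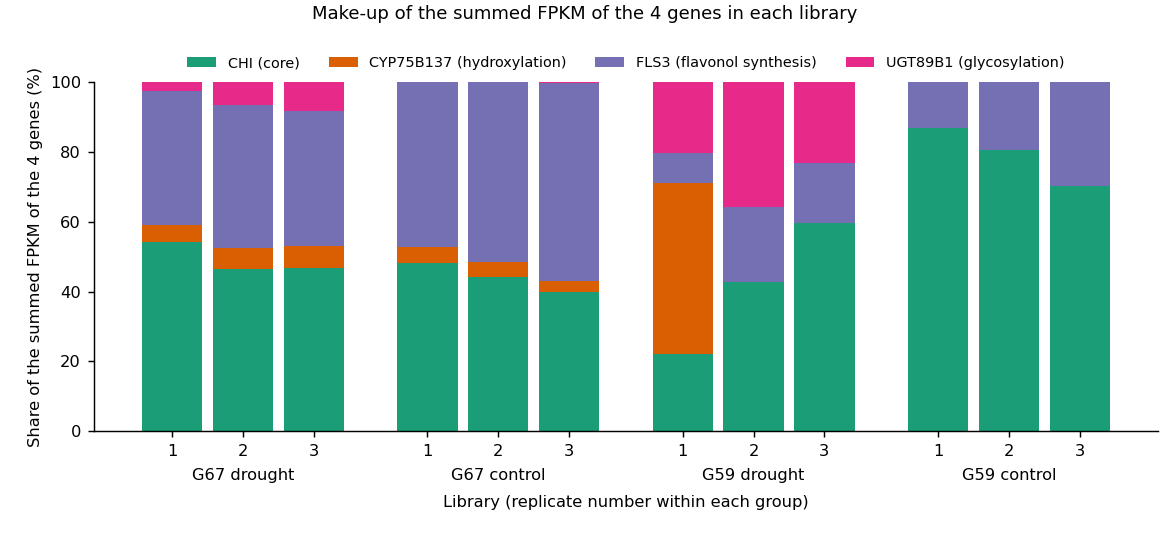
Share (%) of each of the 4 genes in their summed FPKM, in each of the 12 libraries. *FLS3* takes 38.3 to 40.8% in G67 drought and 47.3 to 56.7% in G67 control, and *UGT89B1* takes 20.5 to 35.9% in G59 drought.

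Ranks among the 998 listed genes (1 is the highest FPKM, ties at their mean) place the 4 genes without any scaling. In G67 all 4 stood higher in the list under drought than under control. *CHI* ranked 120, 161 and 153 in G67 drought and 189, 292 and 307 in G67 control, and *FLS3* ranked 164, 170 and 184 against 192, 254 and 243. *CYP75B137* ranked 635, 597 and 585 in G67 drought and 666, 770 and 815 in G67 control. *UGT89B1* moved furthest, to 756, 577 and 523 in G67 drought, against 979.5, 981 and 954 in G67 control. The 4 ranks did not overlap, as for 88.5% of the listed genes (exact permutation test, p = 0.1 each, adjusted 0.133 over 8 tests).

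In G59, *UGT89B1* ranked 202, 221 and 527 under drought and 860, 857 and 868, tied with the other genes at 0, under control. *CHI* ranked 180, 164 and 278 in G59 drought and 298.5, 288.5 and 426 in G59 control. These 2 of the 4 did not overlap, against 57.7% of the listed genes (exact permutation test, p = 0.1 each, adjusted 0.133). *FLS3* ranked 486, 402.5 and 616 in G59 drought and 632.5, 567.5 and 557 in G59 control, which overlapped (exact permutation test, p = 0.3). *CYP75B137* ranked 39 in replicate 1 of G59 drought and 974 and 970.5 in the others, among the genes at 0. *CHI* thus kept a place in the upper part of the list in both genotypes, while *FLS3* stood far lower in G59 than in G67.

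**Figure D5:**
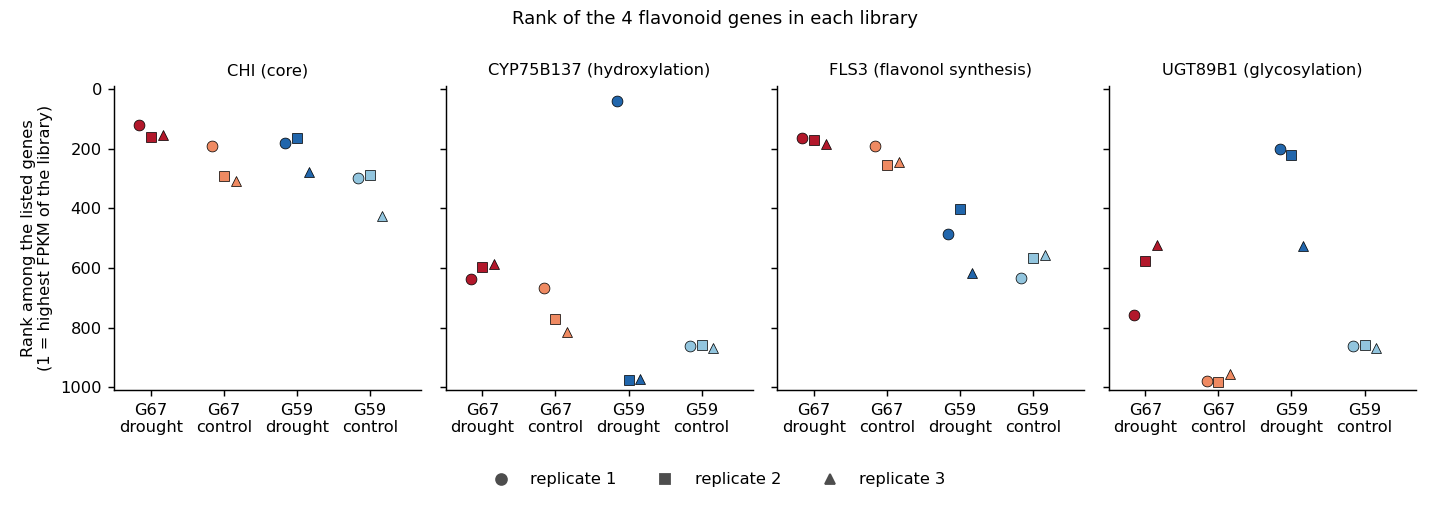
Rank of the 4 genes among the 998 listed genes in each library, by group, with rank 1 (the highest FPKM) at the top; points are libraries. *UGT89B1* stands at 523 to 756 in G67 drought, against 954 to 981 in G67 control.

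Between the genotypes, *FLS3* and *CHI* were higher in G67 in both treatments, and *UGT89B1* did not pass the thresholds in either with the values as deposited. Under drought, 3 of the 4 were called as higher in G67 in limma, where 73.6% of the listed genes were called and 67% were called as higher. Under control it was also 3 of 4, against 80.6% and 77.5%. The median log2 fold change was 2.66 for the 4 genes and 2.01 for the listed genes under drought, and 2.89 and 2.67 under control. Relative to the listed median, *FLS3* lay 2.17 above it under drought and 2.14 above it under control, and *CHI* 1.49 and 1.17 above it. Relative to the same median, *UGT89B1* stood at -1.12 under drought and -2.62 under control. Its own log2 fold change was 0.89 under drought (adjusted p = 0.0427 in limma, under the fold threshold), which turned to -0.86 under median-ratio scaling and to -1.35 under quantile normalization, where it was called as lower in G67 (adjusted p = 0.00532 in limma), and 0.05 under control (-0.66 after quantile normalization). That of *CHI* was 0.41 under drought and 0.37 under control after quantile normalization, and *CHI* was then not called.

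*CYP75B137* was called in both treatments (1.81, adjusted p = 0.0403, and 1.93, adjusted p = 0.029, in limma). Neither call held with median-ratio scaling (0.41 and 1.03) or quantile normalization (0.036 and 0.51). Under drought it was not called when the 6 drought libraries were fitted by themselves (adjusted p = 0.107 in limma), or when any 1 of them other than G59 replicate 1 was left out (1.18 to 1.85), and it was 3.07 without G59 replicate 1. Under control it was not called without G67 replicate 1 (1.66) or 2 (1.97) or any 1 of the G59 libraries (1.93 each). *UGT89B1* was called under drought as higher in G67 without G67 replicate 1 (1.23) or G59 replicate 1 (1.17) or 2 (1.10). The FPKM of the genotypes did not overlap for 2 of the 4 genes under drought (82.7% of the listed genes, 73.4% with G67 wholly higher) and for 3 of 4 under control (91.1%, 84% with G67 wholly higher).

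The listed genes whose log2(FPKM + 1) ran most like each of the 4 were found by Pearson's r, as a description. Over the 6 G67 libraries, *CHI* and *FLS3* were each other's closest gene among the 997 others (r = 0.98). Next to *CHI* came LOC106354199 (0.97) and *CYP75B137* (0.95), and 8 listed genes reached 0.9 with it. Next to *FLS3* came LOC106354199 (0.94) and LOC106348168 (0.92), and 4 genes reached 0.9. *CYP75B137* was closest to LOC106354199 (0.98), BNAA07G29510D (0.97) and LOC106353359 (0.96). *UGT89B1* was closest to LOC106348195, LOC106354301 and LOC106345502 (each r of 0.997 or more), and 380 listed genes reached 0.9 with it. These r share the contrast of 3 drought and 3 control libraries.

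To take out the treatment, the libraries were set against their own group mean. The deviations of *CHI* and *FLS3* over the 6 G67 libraries had r = 0.95, place 10 of 997 for *CHI*, and those of *CHI* and *CYP75B137* had r = 0.82. *UGT89B1* had r = -0.49 with *CHI* and -0.38 with *FLS3*. As it was listed at 0, 0 and 0.11 FPKM in G67 control, these r rest almost wholly on the G67 drought libraries. Those are too few to tell whether it deviated otherwise. Replicate 1 held the highest *CHI* and *FLS3* of both G67 groups and the lowest *UGT89B1* of G67 drought. It also had the highest median-ratio scaling factor of each group within G67 (1.02 in drought, 1.14 in control). The deviations were taken without such scaling, and how far the scale of a library enters their r was not tested. Over all 12 libraries, which also share the contrast of the genotypes and where 407 listed genes reached 0.9 with *CHI*, the closest to *CHI* were LOC106348372, LOC106354137 and LOC106352176 (each 0.99). Over the same 12, *FLS3* was closest to LOC106348372 (0.996), BNAC02G07050D (0.99) and *CCR1* (0.99), *CYP75B137* to LOC106350416, LOC106353068 (0.93 each) and LOC106346309 (0.85), and *UGT89B1* to LOC106353792, BNAC07G39040D (0.99 each) and LOC106348034 (0.97).

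Of the other pathway genes, *PAL1* (LOC106388514), a phenylalanine ammonia-lyase at the entry to the pathway, and *CCR1* (LOC106367237), a cinnamoyl-CoA reductase of the lignin branch, could be named. In G67, 1 of these 2 was called as higher under drought (*PAL1*, log2 fold change 1.50, 29.5% of the listed genes called as higher), and in G59 the other was (*CCR1*, 1.15, 47.3% called as higher). *PAL1* had 47.26, 94.66 and 68.92 FPKM in G67 drought and 11.11, 74.93 and 14.51 FPKM in G67 control, so its groups overlapped. *CCR1* had 56.15, 58.97 and 69.35 FPKM in G67 drought and 24.9, 30.98 and 35.58 FPKM in G67 control, without overlap. The uncalled ones lay just under the fold threshold, *CCR1* with 0.997 in G67 (adjusted p = 0.0017 in limma) and *PAL1* with 0.996 in G59 (adjusted p = 0.0956), so that calls on either side of it do not show that the genotypes differ. Per FPKM of *CHI*, *CCR1* had 0.721, 1.04 and 1.23 FPKM in G67 drought and 0.527, 1.20 and 1.62 FPKM in G67 control, and 0.320, 0.282 and 0.203 in G59 drought and 0.0301, 0.0276 and 0.0274 in G59 control. The ratio overlapped between drought and control in G67 and did not in G59, where control *CCR1* was near 0, at 0.04, 0.04 and 0.02 FPKM. With a pseudocount of 1, 66.1% of all pairs of listed genes did not overlap in G67 and 61.8% in G59. *CCR1* deviated against *CHI* and *FLS3* within the G67 groups (r = -0.91 and -0.88 over 6 libraries).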

How the data were processed

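RNA of flowers was sequenced on a DNBSEQ-G400 platform. The authors removed low-quality reads (NGS QC Toolkit), used Darmor-bzh as the genome (aligner not given in the sources used here) and computed the deposited FPKM, given with 2 decimals, with Cuffquant and Cuffnorm of Cufflinks 2.0.0. Samples were grouped by the labels' genotype class, treatment and replicate. A table of the series with group means and a ratio of means was not used. No 2 libraries held identical values. Low FPKM values were divided by the lowest value of their gene above 0 across the libraries of a genotype. Of these, 32.1% of 168 values in G67 and 26.8% of 608 in G59 lay within 0.15 of a multiple. Libraries of unlike depth differ in the FPKM of a read, so this check could not show whole-read steps. Depth is unknown and no count test was run. Identifiers were matched to the RefSeq table of another assembly, Da-Ae (877 of 998, and 4 of the 4 genes), and no coordinates are given.

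limma 3.58.1 (R 4.3.3) was fitted to log2(FPKM + 1) with 1 coefficient per group over 12 libraries, without a filter or trend, with Benjamini-Hochberg adjustment over 998 genes. This scale understates the change of low genes. Calls needed a log2 fold change of 1 or more in size with an adjusted p not above 0.05 (the interaction the adjusted p alone). The fit was tested on simulated data. Ratios of steps, ranks and exact permutation tests (20 arrangements, or 400 within treatments) used Python 3.11.15 and numpy 2.4.6. Alternatives were other pseudocounts (0.1, 0.01), a filter at a mean of 1 FPKM, median-ratio and quantile scaling, a 2-group fit, a trend, a replicate block, other thresholds, and leaving out each library. Median-ratio scaling within each genotype was added after seeing the data. In G67, same-numbered drought and control libraries deviated together (r = 0.438, 0.190 and 0.194), against -0.335 to 0.153 for libraries of unlike number. In G59 they did not (0.00973, -0.00781 and -0.132). Deviations from a group mean cancel within the group, so positive r for like numbers make some r for unlike numbers negative. The contrast between like and unlike numbers is thus partly fixed in advance. Whether the numbers mark true pairs was not tested, and differences by number are a description. The genes named are the 4, *PAL1*, *CCR1* and the 3 genes most like each of the 4. Members, lists and tests were chosen with earlier results of these data known. Pathway words, promoter motifs and tissue markers were not used, since the reference table holds neither descriptions nor sequences.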

Additional observations from a re-analysis of the deposited data

How the results depend on the processing

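Under median-ratio scaling and under quantile normalization, 1 of the 4 genes was called in G67 and 1 in G59, against 2 and 3, and 1 was called between the genotypes under control after quantile normalization, against 3. Scaling within each genotype gave 1 in G59, and 2 (*UGT89B1*, 1.50, and *CHI*, 0.93) for the interaction, against 0. Of the 998 listed genes, 676 were called for the interaction with this scaling, and 714 and 750 with pseudocounts of 0.1 and 0.01. For the interaction 1 gene was called with a pseudocount of 0.1 or 0.01, and 2 ratios of steps did not overlap in G59 with either, against 1, and 3 between genotypes, against 4. Leaving out 1 library at a time, the genes called numbered 1 to 2 in G67, 3 to 4 in G59, 2 to 4 between genotypes under drought, 2 to 3 under control and 0 to 1 for the interaction, and ratios of steps not overlapping numbered 5 to 6 in G67, 1 to 4 in G59 and 4 to 5 between genotypes.

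Signs turned for *UGT89B1* between the genotypes, with -0.86 (median-ratio) and -1.35 (quantile) under drought and -0.66 (quantile) under control. In the interaction they turned for *UGT89B1* (-0.047 with a pseudocount of 0.01, -0.88 median-ratio, -0.69 quantile), *CHI* (0.31 median-ratio, 0.037 quantile, 0.93 within each genotype), *CYP75B137* (0.37) and *FLS3* (0.27, both within each genotype). *CYP75B137* ranged from -0.75 to 1.14 with each library left out. The causes were not tested.

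With the replicate number as a block, the 4-group fit called 2, 3, 3, 3 and 0 of the 4 genes in G67, in G59, between genotypes under control and under drought, and for the interaction, as without it, and changed no call. The 2-group fit with the block called 3 in G67 and 2 between genotypes under drought.

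Of the listed genes, 439 were called in G67 (294 higher) and 539 in G59 (472 higher). Quantile normalization gave 183 (106 higher) and 430 (218 higher), median-ratio scaling 293 (173 higher) and 537 (343 higher), and scaling within each genotype 475 (382 higher) and 326 (155 higher). The adjusted p alone gave 836 and 914, and pseudocounts of 0.1 and 0.01 gave 922 and 930 in G59. The median of the listed genes in G59 was 0.23, 0.56 and 0.28 under these 3 scalings, against 0.98. Between genotypes under drought, 669 were higher and 66 lower in G67, 368 and 239 with median-ratio scaling and 309 and 309 after quantile normalization, and under control 773 and 31, 442 and 214, and 302 and 311. Depth is unknown, so the counting error of values near 0 could not be estimated.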

Other observations

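*PAL1* per FPKM of *CHI* was 0.606, 1.67 and 1.22 in G67 drought, against 0.235, 2.91 and 0.663 in G67 control, and 0.234, 0.249 and 0.132 in G59 drought, against 0 in the 3 libraries of G59 control. The G67 groups overlapped, and replicate 2 of the control held the highest ratio of the 12 libraries.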
